A study of Homo sapiens with 15 samples.

Results

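The poly(A) RNA that sedimented after eIF4A inhibition was compared with the poly(A) RNA of the extract it came from. The members are 6 count libraries of 15 in the series, chosen by their titles: 3 silvestrol pellets and 3 inputs. Cytosolic extract of wild type U2OS cells, a human osteosarcoma line, was incubated for 2 h with 2 µg/ml silvestrol, then centrifuged, and RNA was taken from the washed pellet. Input is the same kind of extract, neither treated nor pelleted. The 3 mock libraries are pellets of extract incubated for the same 2 h with nothing added, and they are used here beside the silvestrol pellets. Pellets of dsRNA and PEG reactions enter only the filter on low counts and 1 alternative fit. All replicates are labelled as biological replicates of 1 cell line. The study describes the pelleted material as YFP-G3BP1 condensates, while the labels give the cells as wild type, and a tag on G3BP1 could not be checked from gene counts. Silvestrol differs from input by the drug, by the incubation and by centrifugation, so these cannot be told apart in that comparison. Silvestrol and mock pellets differ by what was added to the extract. In other experiments the study used DMSO as the vehicle control for silvestrol, while mock here had nothing added. The drug and any vehicle therefore cannot be told apart.

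Silvestrol is a plant rocaglate that clamps eIF4A, the DEAD-box helicase of the cap-binding complex eIF4F, onto polypurine stretches of RNA. The clamped helicase can no longer unwind the leaders of mRNAs for the scanning ribosome, initiation stops, polysomes run off, and the released mRNAs condense with G3BP1 and other RNA-binding proteins into stress granules. Long, poorly translated mRNAs are known to enter stress granules of living cells more than short, well translated ones. A pellet of extract can also hold membranes, organelles and cytoskeleton with the RNA bound to them.

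Total counts ran from 23101982 to 46939993 in input, from 35324726 to 45319526 in the silvestrol pellets and from 32477292 to 39903656 in mock. The filter asked for 10 counts or more in 2 or more replicates, in all 5 conditions, and 16612 of 57500 genes passed. CPM are counts scaled to the library total after TMM normalisation. Of 10 mesenchymal markers 8 were kept. In sum they had 4766 to 5003 CPM in the input libraries and 2996 to 3692 in the silvestrol pellets. Of 10 epithelial, blood and liver markers only EPCAM was kept, at 8.19 to 11.8 CPM in input and 5.19 to 8.61 in the pellets.

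Genes enriched and genes depleted in the pellets after silvestrol were nearly equal in number, and most genes were called in neither direction. Here enriched and depleted mean a higher or lower share of the scaled counts than in input, not an amount of RNA. Of the 16612 genes, 3225 (19.4%) were enriched in the silvestrol pellets and 3007 (18.1%) depleted, at an adjusted p under 0.05 in edgeR's quasi-likelihood test. Only 756 of the enriched and 401 of the depleted genes changed more than 2-fold. In 8926 genes (53.7%) the 3 silvestrol libraries did not overlap the 3 inputs. Libraries that share a replicate number deviated together. A replicate block in the fit raised the counts to 5109 enriched (30.8%) and 4764 depleted genes (28.7%). Leaving out single libraries gave 2148 to 3180 enriched and 1711 to 3283 depleted genes. The lowest counts came without input replicate 2 and without silvestrol replicate 2, and without silvestrol replicate 3 the depleted genes numbered 1839. The log2 fold changes of all genes had a median of 0.00 and quartiles of -0.40 and 0.46.

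**Figure D1:**
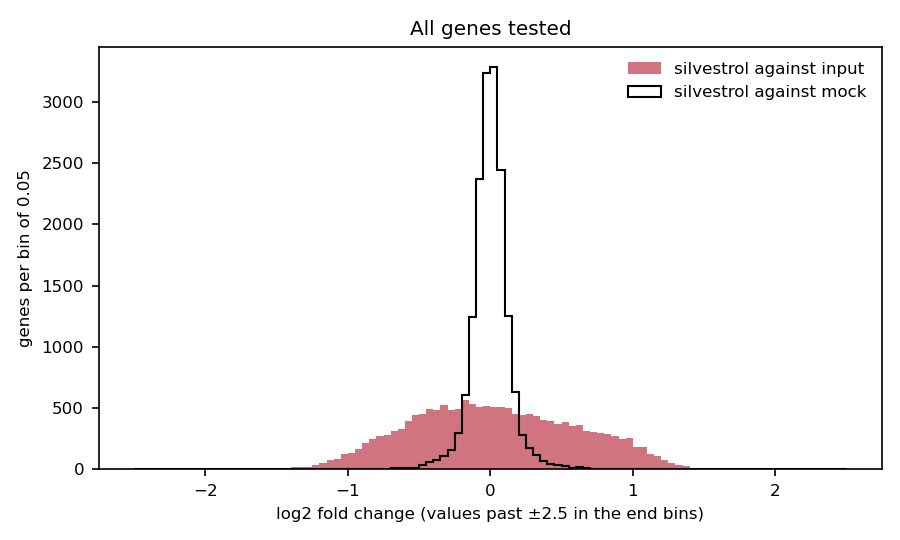
Number of genes (y axis, bins of 0.05) by log2 fold change (x axis) for silvestrol against input (red) and silvestrol against mock (black line), over 16612 genes, with values past 2.5 in either direction in the end bins. The middle of the red distribution, between its quartiles, lies between -0.40 and 0.46, while that of the black one lies between -0.07 and 0.07.

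Gene lists were described by the number of members enriched or depleted and by their median log2 fold change, to be read against 19.4% and 18.1% of all genes. No set test was run on them. Values in brackets after a gene are its log2 fold change ± standard error and its adjusted p, followed by the highest adjusted p without 1 library, and by both values with a GC offset, where these ended the call. The GC offset removes a smooth trend with GC content in each library. Counts in brackets after a count are those that moved more than 1.5 times when the named library was left out or when the replicate block or the GC offset was added. Some named genes share exon bases with another annotated gene, so their reads may be split or mixed, and strand matters for those in antisense. The part shared on the same strand was 55.8% in HDAC10. The part in antisense was 38.8% in BCL9L, 31.3% in MRPL51, 30.1% in CCT5, 28.1% in PDCD4 and 24.2% in EIF4E2.

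**Figure D2:**
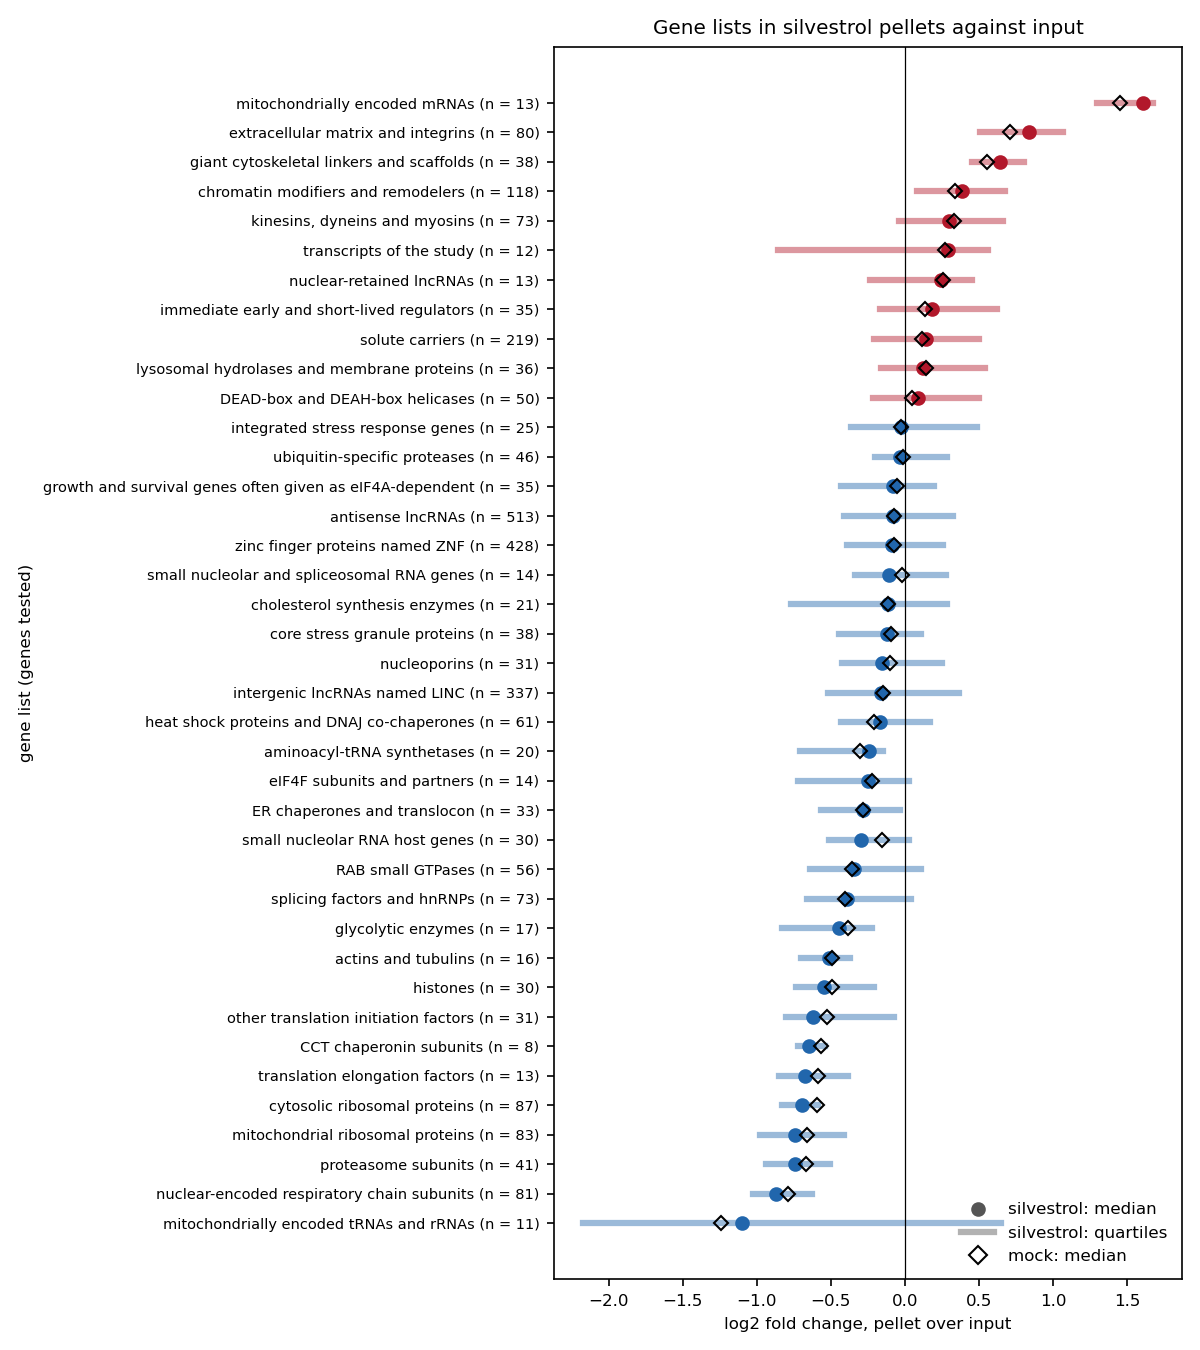
Median log2 fold change of silvestrol pellet over input (filled circles, red above 0 and blue below) with quartiles (bars) for the gene lists with at least 8 genes tested, and the median for mock over input (open diamonds). Mitochondrially encoded mRNAs lie highest at 1.61, nuclear-encoded respiratory chain subunits are at -0.87, and the mock medians, which share the inputs, are drawn beside them.

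The mRNAs made inside mitochondria had the highest median of the lists plotted. The mitochondrial genome encodes core subunits of the respiratory chain and of ATP synthase on 13 mRNAs, and 11 of these 13 were enriched, with a median log2 fold change of 1.61. MT-ND2, a subunit of complex I, had 231, 193 and 156 CPM in input and 721, 732 and 582 in the silvestrol pellets (log2 1.81 ± 0.18, adjusted p = 0.00244). MT-CO3, of cytochrome c oxidase, rose from 393, 381 and 294 to 1167, 1321 and 1064 CPM (log2 1.73 ± 0.17, adjusted p = 0.00244). MT-CYB, of complex III, rose from 265, 296 and 234 to 780.2, 929.9 and 872 (log2 1.7 ± 0.15, adjusted p = 0.00244). For each of these 3 mRNAs every pellet lay above every input. MT-ATP6 and its overlapping neighbour MT-ATP8, both of ATP synthase, had log2 fold changes of 1.68 ± 0.19 and 1.61 ± 0.25, and reads of the stretch they share cannot be assigned to either. The remaining enriched mRNAs were MT-ND4 (1.67), MT-ND4L (1.63), MT-ND3 (1.5), MT-CO2 (1.37), MT-ND1 (1.29) and MT-CO1 (1.28). The exceptions were MT-ND5 and MT-ND6. MT-ND5 had 309, 281 and 235 CPM in input and 259, 319.9 and 252 in the pellets, a log2 fold change of 0.01 ± 0.16 with adjusted p = 0.971. MT-ND6, the only mRNA coded on the light strand, had 209.6, 137 and 105 CPM in input and 81.4, 123.5 and 85.4 in pellets (log2 -0.64 ± 0.27, adjusted p = 0.0937, and adjusted p = 0.0154 with the block).

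Counts in transfer RNA genes of the same genome behaved unlike those of the mRNAs. The tRNA genes named below are 66 to 75 bases long, and the libraries were poly(A)-selected. Whether the reads counted there come from the tRNAs themselves was not tested. Of 22 mitochondrial tRNA and rRNA genes 11 passed the filter, of which 3 (5 without input replicate 3, 6 with the block) were depleted and 1 (3 without silvestrol replicate 1, 4 with the block, 2 with a GC offset) was enriched. The depleted ones, MT-TN, MT-TC and MT-TY, are neighbours coded on the light strand and carry asparagine, cysteine and tyrosine. MT-TN fell from 15.8, 17.9 and 18.6 CPM in input to 2.0, 3.28 and 1.2 (log2 -3.02 ± 0.33, adjusted p = 0.00244). MT-TC had 5.43, 4.92 and 3.75 CPM in input and 0.282, 0.492 and 0.239 in pellets (log2 -3.8 ± 0.32, adjusted p = 0.00244). MT-TY had 7.78, 6.39 and 5.5 CPM in input and 0.359, 0.984 and 0.631 in pellets (log2 -3.31 ± 0.34, adjusted p = 0.00244). In each case the pellets lay far below the inputs, with no overlap. Of the other light-strand tRNAs kept, MT-TE had a log2 fold change of -1.33 ± 0.53 (adjusted p = 0.0811, 0.0138 with the block) and MT-TP of 0.82 ± 0.29 (adjusted p = 0.0596, 0.000391 with the block). MT-TL1, the heavy-strand tRNA that carries leucine, rose from 18.4, 19.9 and 14.3 to 29.1, 40.9 and 37.2 CPM (log2 1.03 ± 0.18, adjusted p = 0.00437). The strand setting of the counting is not given in the sources used here, so reads of a tRNA and of the transcript antisense to it may be mixed. MT-TC, MT-TY and the other tRNAs apart from MT-TN and MT-TL1 were picked after their values were seen. Genes of the mitochondrial genome together took 0.369% to 0.473% of counts in input, 1.08% to 1.32% in the silvestrol pellets and 0.974% to 1.23% in mock.

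Transcripts of the extracellular matrix and of its receptors, which are translated at the endoplasmic reticulum, had the highest median of the nuclear-encoded lists plotted. Of 80 collagens, laminins, fibronectins, integrins and related genes, 39 (23 to 25 without silvestrol replicate 2 or 3, 64 with the block) were enriched and 1 (0 without input replicate 2 or 3 or silvestrol replicate 1 or 2, 2 with the block) depleted, with a median log2 fold change of 0.84 and quartiles of 0.51 to 1.07. COL1A1, the main collagen of bone, had 523, 606 and 651 CPM in input and 1883, 1235 and 1399 in the pellets (log2 1.34 ± 0.19, adjusted p = 0.00275). COL16A1, a fibril-associated collagen, went from 34.9, 46.6 and 56.8 to 153, 113 and 129 (log2 1.51 ± 0.20, adjusted p = 0.00249), the largest rise of a nuclear protein-coding gene called at an average log2 CPM of 3 or more. The basement membrane collagens COL4A1 and COL4A2 rose together, from 39.7, 65.2 and 76.7 to 158, 126 and 141 CPM and from 108, 173 and 204 to 418, 389 and 428 (log2 fold changes of 1.22 ± 0.23 and 1.35 ± 0.22, adjusted p = 0.0061 and 0.004). LAMC1, a laminin chain, rose by 0.87 ± 0.14, fibronectin (FN1) by 0.69 ± 0.16 (adjusted p = 0.0123, up to 0.0507 without silvestrol replicate 3), and the integrin chains ITGA5 and ITGAV by 0.99 ± 0.14 and 0.58 ± 0.11 on the log2 scale. Their partner ITGB1 had 565, 605 and 655 CPM in input and 527, 630.4 and 688 in the pellets, with a log2 fold change of 0.02 ± 0.15 and adjusted p = 0.938. The depleted member was FBLN5, a small elastic-fibre protein, at 16, 18.2 and 17.4 CPM in input and 9.73, 10.3 and 15.1 in pellets (log2 -0.56 ± 0.19, adjusted p = 0.0478, up to 0.153 without input replicate 2 or 3 or silvestrol replicate 1 or 2). COL4A1, COL4A2, LAMC1, ITGA5, ITGAV and ITGB1 were picked after their values were seen.

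Transcripts of very large cytoskeletal proteins lay on the enriched side, and those of motor proteins on both sides. Of 38 giant linkers and scaffolds, 23 (14 without input replicate 2 or 3) were enriched and 0 (1 with the block) depleted, with a median of 0.64. FLNA, which crosslinks actin, had 1275, 1199 and 1201 CPM in input and 2764, 1944 and 2015 in the pellets (log2 0.87 ± 0.17, adjusted p = 0.00725, and log2 0.39 with adjusted p = 0.186 with a GC offset). PCNT, the centrosomal scaffold pericentrin, rose from 53, 46.5 and 49.2 to 127, 95.4 and 104 (log2 1.14 ± 0.14, adjusted p = 0.00244). In both genes the lowest pellet was above the highest input. SPTAN1, TLN1 and MACF1, which tie the membrane and adhesions to actin and microtubules, rose by 1.09 ± 0.11, 0.98 ± 0.15 and 0.64 ± 0.18, the last with adjusted p up to 0.105 without input replicate 2 or 3. Among 73 kinesins, dyneins and myosins 23 (14 to 15 without input replicate 2 or 3, 38 with the block) were enriched and 10 (3 to 5 without silvestrol replicate 2 or 3, 17 with the block, 5 with a GC offset) depleted. MYH9, the heavy chain of nonmuscle myosin, rose from 1695, 1621 and 1749.6 to 2624, 2683 and 2808 CPM (log2 0.68 ± 0.13, adjusted p = 0.00679, and log2 0.37 with adjusted p = 0.103 with a GC offset). The kinesin KIF7 rose by 1.13 ± 0.14. The light chains of dynein went the other way. DYNLL1 fell from 282, 228 and 226 to 106, 108 and 124 CPM (log2 -1.12 ± 0.14, adjusted p = 0.00244). DYNLRB1 fell from 109, 97.2 and 99.8 to 42.8, 42.9 and 51.4 (log2 -1.16 ± 0.12, adjusted p = 0.00244). The heavy chain of the same motor, DYNC1H1, was enriched (log2 0.53 ± 0.14, adjusted p = 0.0224, up to 0.093 without input replicate 2 or 3 or silvestrol replicate 3). SPTAN1, TLN1, MACF1 and KIF7 were picked after their values were seen.

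Of 118 chromatin modifiers and remodelers, 52 (32 to 33 without input replicate 2 or 3) were enriched and 11 (6 to 7 without input replicate 2 or 3 or silvestrol replicate 2 or 3) depleted (median 0.39). CHD4, the ATPase of the NuRD complex, had 1166, 1025 and 1096 CPM in input and 1731, 1641 and 1608 in the pellets (log2 0.60 ± 0.13, adjusted p = 0.0103, up to 0.0642 without input replicate 2 or 3), and 46.9% of its exon bases are shared with another annotated gene. DNMT1, the maintenance DNA methyltransferase, rose by 1.06 ± 0.19, and SMARCA4 and KMT2B, of the SWI/SNF complex and the MLL family, by 0.93 ± 0.12 and 0.97 ± 0.16. For KMT2B this was 0.46 with a GC offset (adjusted p = 0.101). HDAC10 showed the largest change, from 5.29, 6.77 and 7.59 to 15.7, 16.8 and 14.1 CPM (log2 1.24 ± 0.17, adjusted p = 0.00264). The class I deacetylases HDAC1 and HDAC2 went down instead. HDAC1 had 322, 257 and 259 CPM in input and 209.9, 215 and 213 in pellets (log2 -0.39 ± 0.13, adjusted p = 0.0459, up to 0.13 without input replicate 2 or 3 or silvestrol replicate 1, 2 or 3, and log2 -0.35 with adjusted p = 0.0946 with a GC offset), and HDAC2 fell by 0.84 ± 0.17. Solute carriers, the transporters of ions and metabolites, numbered 219, with 48 (76 with the block) enriched, 19 (8 to 10 without silvestrol replicate 2 or 3, 34 with the block) depleted and a median of 0.14. SLC12A7, a plasma membrane cotransporter of potassium and chloride, rose from 140.3, 168 and 168 to 341, 327 and 319.6 CPM (log2 1.05 ± 0.12, adjusted p = 0.00244). SLC25A5, the ADP/ATP carrier of the mitochondrial inner membrane, fell from 511, 727 and 711 to 354, 412 and 433 (log2 -0.70 ± 0.17, adjusted p = 0.0158, up to 0.0521 without input replicate 3 or silvestrol replicate 2). SLC39A13, a zinc transporter of the secretory pathway, changed most in this list (log2 1.31 ± 0.23, adjusted p = 0.00453). Lysosomal genes gave 7 (14 with the block, 3 with a GC offset) enriched and 3 (1 without input replicate 2 or 3 or silvestrol replicate 1, 2 or 3, 7 with the block) depleted of 36, and their median of 0.12 (0.06 with a GC offset) was -0.00 without input replicate 1. NAGLU, which degrades heparan sulfate, rose by 1.07 ± 0.13. PSAP, the precursor of the saposins, rose by 0.77 ± 0.25 (adjusted p up to 0.13 without input replicate 1, 2 or 3 or silvestrol replicate 2 or 3, and log2 0.66 with adjusted p = 0.0609 with a GC offset), and PPT1, a thioesterase, had 76.1, 90.7 and 86.1 CPM in input and 58.1, 64.4 and 68.6 in pellets (log2 -0.40 ± 0.12, adjusted p = 0.0321, up to 0.0928 without input replicate 2 or 3 or silvestrol replicate 1, 2 or 3, and log2 -0.25 with adjusted p = 0.129 with a GC offset). DNMT1, SMARCA4, KMT2B and HDAC2 were picked after their values were seen.

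The mRNAs of the translation apparatus lay mostly on the depleted side in the pellets. Of 87 cytosolic ribosomal protein genes, 58 (34 to 36 without input replicate 2 or 3) were depleted and 0 (1 without silvestrol replicate 1, 1 with the block) enriched. Their median log2 fold change was -0.70 with quartiles of -0.83 to -0.58. The pellets differed in this: against the input mean, the medians of silvestrol replicates 1, 2 and 3 were -1.18, -0.56 and -0.48. RPL8 had 4979.6, 4879.8 and 5132 CPM in input and 2069.5, 3133 and 3315 in the pellets (log2 -0.82 ± 0.20, adjusted p = 0.0162). RPL26L1, a paralog of RPL26 whose reads may be shared with it, fell most, from 36.4, 27.3 and 26.2 to 12.9, 12 and 12 (log2 -1.28 ± 0.15, adjusted p = 0.00244). Ribosomal protein genes have many processed pseudogenes, and how multi-mapping reads were counted is not given in the sources used here.

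Initiation factors outside eIF4F were depleted in 16 (8 without silvestrol replicate 2) and enriched in 2 (4 without input replicate 1) of 31 (median -0.62). EIF3E and EIF2S1, of the eIF3 and eIF2 complexes that bring the initiator tRNA to the small subunit, had 564, 683 and 628 against 243, 379 and 432 CPM (log2 -0.83 ± 0.22, adjusted p = 0.0192, up to 0.0511 without input replicate 2 or silvestrol replicate 2, and log2 -0.60 with adjusted p = 0.0691 with a GC offset) and 344, 178 and 184 against 127, 111 and 112 (log2 -1.01 ± 0.25, adjusted p = 0.0166, up to 0.0615 without silvestrol replicate 2 or 3). EIF1, which monitors start codon choice, fell by 0.78 ± 0.17 and was picked after its values were seen. The enriched members were EIF3A and EIF5B. EIF3A, the biggest eIF3 subunit, rose from 756, 569.7 and 619.6 to 1260.3, 1240.5 and 1140.1 CPM (log2 0.90 ± 0.15, adjusted p = 0.00408). EIF5B, the GTPase that joins the ribosomal subunits, rose from 387, 215 and 234 to 839, 701 and 618 (log2 1.37 ± 0.24, adjusted p = 0.00497). Elongation and termination factors were depleted in 9 (4 without silvestrol replicate 2 or 3) and enriched in 0 of 13 (median -0.67). EIF5A, which helps the ribosome through proline stretches, fell from 1202, 713 and 752 to 505, 386 and 375 CPM (log2 -1.07 ± 0.23, adjusted p = 0.00977). EEF1A2, a paralog of EEF1A1, had 994, 981 and 1019 CPM in input and 727, 721 and 844 in pellets (log2 -0.39 ± 0.13, adjusted p = 0.0494, up to 0.166 without input replicate 2 or 3 or silvestrol replicate 1, 2 or 3). Aminoacyl-tRNA synthetases, which charge tRNAs, were depleted in 7 and enriched in 0 (1 with the block) of 20 (median -0.25, -0.39 with a GC offset). FARSB fell from 87.2, 47.8 and 47.5 to 27.9, 23.6 and 25 CPM (log2 -1.25 ± 0.24, adjusted p = 0.00644). TARS fell from 249, 184 and 189 to 122, 114 and 127 (log2 -0.77 ± 0.15, adjusted p = 0.0062).

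The nuclear-encoded partners of the mitochondrial mRNAs moved in the opposite direction to them. Of 81 respiratory chain and ATP synthase subunits made in the cytosol and imported, 66 were depleted and 1 (0 without input replicate 1 or 2 or silvestrol replicate 1, 2 or 3, 0 with a GC offset) enriched, with a median of -0.87 against 1.61 for the subunits encoded in the organelle. CYCS, cytochrome c, fell from 417, 216 and 228 to 105, 96.6 and 102 CPM (log2 -1.51 ± 0.25, adjusted p = 0.00401). CYC1, a subunit of complex III, fell from 586, 494 and 528 to 421, 397 and 383 (log2 -0.42 ± 0.13, adjusted p = 0.0328, up to 0.124 without input replicate 2 or 3 or silvestrol replicate 2 or 3), while MT-CYB of the same complex was enriched. COX7A1, the enriched member, was a low-count gene at 0.828, 1.02 and 1.33 CPM in input and 1.93, 1.8 and 1.96 in the pellets (log2 0.83 ± 0.24, adjusted p = 0.0297, up to 0.109 without input replicate 1 or 2 or silvestrol replicate 1, 2 or 3, and log2 0.43 with adjusted p = 0.158 with a GC offset). Mitochondrial ribosomal proteins, also imported, were depleted in 64 of 83 and enriched in 1 (0 with a GC offset) (median -0.74). MRPL17 fell from 131, 90.7 and 94.1 to 46.7, 24.9 and 38.4 CPM (log2 -1.52 ± 0.25, adjusted p = 0.00375). MRPL51 fell from 368, 292 and 301 to 172, 153 and 156 (log2 -1.0 ± 0.14, adjusted p = 0.00268). The exception, MRPS26, rose from 56.3, 65.6 and 63.8 to 91.5, 88.8 and 86.4 (log2 0.52 ± 0.11, adjusted p = 0.0088, and log2 0.01 with adjusted p = 0.961 with a GC offset).

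The mRNAs of further cytosolic machines lay on the depleted side. Proteasome subunits and activators were depleted in 29 (14 to 15 without silvestrol replicate 2 or 3) and enriched in 0 of 41 (median -0.74). PSMA7 and PSMA6, of the catalytic core, fell from 698, 375 and 391 to 263, 203 and 206 CPM (log2 -1.12 ± 0.26, adjusted p = 0.0117) and 75.9, 54.3 and 57.7 to 30.4, 24.7 and 28.3 (log2 -1.17 ± 0.16, adjusted p = 0.00264). The chaperonin CCT, which folds actin and tubulin, was depleted in 8 (2 without silvestrol replicate 2 or 3, 2 with a GC offset) of 8 subunits (median -0.65). CCT5 changed most (log2 -0.90 ± 0.17, adjusted p = 0.00653), and CCT7 was at 783, 621 and 628 CPM in input and 467, 383 and 410.3 in the pellets (log2 -0.69 ± 0.15, adjusted p = 0.0102). Actins and tubulins were depleted in 8 (4 to 5 without input replicate 3 or silvestrol replicate 2 or 3) and enriched in 0 of 16 (median -0.51). ACTB fell from 7863, 6566 and 6355 to 4091, 2951 and 3404 CPM (log2 -0.99 ± 0.18, adjusted p = 0.00571). Glycolytic enzymes were depleted in 9 (5 without silvestrol replicate 2) and enriched in 1 (0 to 2 without input replicate 1, 2 or 3, 3 with the block) of 17 (median -0.44). GAPDH had 7005, 6201 and 6157 CPM in input and 2968, 2646 and 3058 in the pellets (log2 -1.16 ± 0.15, adjusted p = 0.00256). LDHA, which reduces pyruvate to lactate, had 1261, 686 and 678 CPM in input and 409, 257 and 325 in pellets (log2 -1.41 ± 0.28, adjusted p = 0.00759). HK2, the inducible hexokinase and the enriched member, rose from 25.4, 21.5 and 21.2 to 43.1, 33.5 and 31.2 (log2 0.66 ± 0.15, adjusted p = 0.0127, up to 0.0581 without input replicate 2 or 3).

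Splicing factors, small GTPases and histones were mostly on the depleted side. Of 73 splicing factors and hnRNPs 30 (17 without silvestrol replicate 2 or 3) were depleted and 8 (2 to 4 without input replicate 2 or 3 or silvestrol replicate 2 or 3, 13 with the block) enriched (median -0.39). SF3B6, a small subunit of the U2 snRNP, fell from 192, 142 and 143 to 61.5, 69 and 71.9 CPM (log2 -1.24 ± 0.15, adjusted p = 0.00244). The Sm protein SNRPD2 fell by 1.09 ± 0.19. SRRM2, a very large scaffold of nuclear speckles, rose by 0.57 ± 0.12 (adjusted p = 0.00859). It and SNRPD2 were picked after their values were seen. HNRNPA2B1 had 1968, 1275 and 1389 CPM in input and 1045, 1061 and 1064 in pellets (log2 -0.55 ± 0.19, adjusted p = 0.0489, up to 0.127 without input replicate 1 or 3 or silvestrol replicate 1, 2 or 3, and log2 -0.29 with adjusted p = 0.215 with a GC offset), and HNRNPA0 714, 710.3 and 801 CPM in input and 986, 986 and 979 in pellets (log2 0.41 ± 0.13, adjusted p = 0.0357, up to 0.168 without input replicate 1, 2 or 3 or silvestrol replicate 2 or 3). RAB GTPases, which direct vesicles, were depleted in 23 (10 to 11 without silvestrol replicate 2 or 3, 15 with a GC offset) and enriched in 5 (8 with the block, 2 with a GC offset) of 56 (median -0.34). RAB1A, of transport from the endoplasmic reticulum, fell from 628, 428 and 451 to 259.9, 273 and 282 CPM (log2 -0.89 ± 0.17, adjusted p = 0.00623). RAB40C, an atypical member that recruits a ubiquitin ligase, rose from 27.8, 33.4 and 34.9 to 85, 73.6 and 75.9 (log2 1.28 ± 0.13, adjusted p = 0.00244). Histone genes were depleted in 10 (19 with the block) and enriched in 2 (1 without input replicate 2 or 3 or silvestrol replicate 2, 1 with a GC offset) of 30 (median -0.54). Of the replacement histones, H3F3A fell from 188, 280.1 and 279.8 to 96, 127 and 137 CPM (log2 -1.06 ± 0.20, adjusted p = 0.0062). H2AFZ fell from 661, 785 and 779 to 442, 440.0 and 439.7 (log2 -0.75 ± 0.13, adjusted p = 0.00434). H2AFX, the variant phosphorylated at DNA breaks, rose from 221, 235 and 232 to 408, 327 and 345 (log2 0.65 ± 0.13, adjusted p = 0.00716, and log2 0.03 with adjusted p = 0.904 with a GC offset).

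Other lists held members of both kinds. Among 61 heat shock proteins and DNAJ co-chaperones 9 (4 to 5 without input replicate 2 or 3 or silvestrol replicate 2) were enriched and 14 (5 to 9 without input replicate 3 or silvestrol replicate 2 or 3, 25 with the block) depleted (median -0.17). HSP90AA1, the stress-inducible cytosolic HSP90, rose from 1278, 759.6 and 751 to 2858, 2016 and 2104 CPM (log2 1.32 ± 0.25, adjusted p = 0.00634). HSPA8, the constitutive HSP70, fell from 1142, 1013 and 975 to 803, 722 and 756 (log2 -0.46 ± 0.13, adjusted p = 0.029, up to 0.111 without input replicate 2 or 3 or silvestrol replicate 2 or 3, and log2 -0.33 with adjusted p = 0.104 with a GC offset). Of 33 chaperones and translocon components of the endoplasmic reticulum 3 (5 with the block) were enriched and 12 depleted (median -0.28, -0.15 with a GC offset). HSP90B1, the HSP90 of that compartment, had 413, 296 and 305 CPM in input and 944, 869.8 and 948 in the pellets (log2 1.45 ± 0.17, adjusted p = 0.00244). HYOU1, its HSP110-type chaperone, picked after its values were seen, rose by 0.87 ± 0.16. KDELR2, the small receptor that returns chaperones to the compartment, fell from 235, 214 and 201 to 97.5, 99.4 and 108 (log2 -1.09 ± 0.12, adjusted p = 0.00244). In cholesterol synthesis 4 (2 without input replicate 2) of 21 were enriched and 8 depleted (median -0.11, -0.30 with a GC offset). FDFT1, squalene synthase, fell by 0.66 ± 0.12, LSS, lanosterol synthase, rose by 0.85 ± 0.21 (adjusted p up to 0.0607 without input replicate 2 or 3, and log2 0.55 with adjusted p = 0.116 with a GC offset), and TM7SF2, a sterol reductase, changed most (log2 1.17 ± 0.19, adjusted p = 0.00387).

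DEAD-box and DEAH-box helicases, the family of eIF4A, were enriched in 11 (17 with the block) and depleted in 6 (2 to 3 without silvestrol replicate 2 or 3, 11 with the block, 3 with a GC offset) of 50 (median 0.09, 0.16 with a GC offset). DDX54 rose from 183, 159.9 and 179.5 to 369.6, 294 and 322 CPM (log2 0.92 ± 0.13, adjusted p = 0.00299, and log2 0.51 with adjusted p = 0.0513 with a GC offset). DHX34, of nonsense-mediated decay, rose from 20.5, 24.6 and 24.1 to 53.6, 42.2 and 45.2 (log2 1.02 ± 0.14, adjusted p = 0.00259). DDX1, of the tRNA ligase complex, had 304, 183 and 192 CPM in input and 168, 134 and 137 in pellets (log2 -0.63 ± 0.21, adjusted p = 0.0477, up to 0.143 without input replicate 3 or silvestrol replicate 1, 2 or 3, and log2 -0.44 with adjusted p = 0.154 with a GC offset). Nucleoporins were enriched in 3 (5 without input replicate 1, 8 with the block) and depleted in 8 (5 without silvestrol replicate 2) of 31 (median -0.16, 0.00 with a GC offset). TPR, the large filament protein of the nuclear basket, rose by 0.89 ± 0.14. NUP88 fell from 69.9, 47.5 and 45.4 to 30.5, 24.4 and 29.2 CPM (log2 -0.95 ± 0.19, adjusted p = 0.00683). SEH1L fell from 281, 202 and 207 to 133, 126 and 122.6 (log2 -0.85 ± 0.15, adjusted p = 0.00517). Ubiquitin-specific proteases were enriched in 8 (3 to 5 without input replicate 2 or 3 or silvestrol replicate 2) and depleted in 3 (1 to 5 without input replicate 2 or silvestrol replicate 2 or 3, 10 with the block) of 46 (median -0.03, 0.12 with a GC offset), with USP19 at 1.05 ± 0.13 and USP39, a splicing factor without protease activity, at -0.77 ± 0.20 (adjusted p up to 0.0708 without silvestrol replicate 2 or 3). Zinc finger genes named ZNF gave 66 (38 without silvestrol replicate 2) enriched and 76 (25 to 35 without input replicate 2 or 3 or silvestrol replicate 2 or 3, 134 with the block, 34 with a GC offset) depleted of 428 (median -0.09, 0.01 with a GC offset). ZNF316 rose from 156, 177 and 194 to 329, 343 and 319 CPM (log2 0.91 ± 0.13, adjusted p = 0.0027, and log2 0.24 with adjusted p = 0.149 with a GC offset), ZNF517 by 1.17 ± 0.21, and ZNF207, a spindle protein, fell by 0.72 ± 0.13.

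The mRNAs of the machinery that silvestrol acts on lay on both sides. Of 14 genes for eIF4F subunits and partners 1 (0 to 3 without input replicate 2 or 3 or silvestrol replicate 1, 3 with the block, 2 with a GC offset) was enriched and 5 (2 to 3 without silvestrol replicate 2 or 3, 3 with a GC offset) were depleted (median -0.25). The scaffold EIF4G1 rose from 849, 673 and 714 to 1702, 1145 and 1141 CPM (log2 0.83 ± 0.20, adjusted p = 0.0137, up to 0.0589 without input replicate 2 or 3, and log2 0.58 with adjusted p = 0.0909 with a GC offset). Of its paralogs, EIF4G3 had a log2 fold change of 0.31 ± 0.12 (adjusted p = 0.0761, 0.0235 with the block). EIF4G2, which lacks the cap-binding partner's site, fell from 1247, 905 and 933 to 708, 551 and 605 (log2 -0.73 ± 0.18, adjusted p = 0.0149, up to 0.0644 without silvestrol replicate 2 or 3, and log2 -0.52 with adjusted p = 0.0621 with a GC offset). The mRNAs of the cap-binding proteins were depleted. EIF4E had 122, 84.1 and 83 CPM in input and 64.8, 57.6 and 53.1 in the pellets (log2 -0.72 ± 0.17, adjusted p = 0.015, up to 0.0618 without silvestrol replicate 2 or 3, and log2 -0.51 with adjusted p = 0.0544 with a GC offset), and EIF4E2 211, 155 and 172 CPM in input and 87.8, 94.7 and 90.9 in pellets (log2 -0.98 ± 0.14, adjusted p = 0.00286). Their inhibitors EIF4EBP1 and EIF4EBP2 fell by 0.91 ± 0.23 (adjusted p up to 0.0504 without silvestrol replicate 2) and 0.78 ± 0.13.

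For the mRNAs of the drug's own targets no change was detected without the block. EIF4A1 was counted at 19, 18.3 and 18.1 CPM in input and 18.5, 18.9 and 19.4 in the pellets, with overlapping groups (log2 0.04 ± 0.11, adjusted p = 0.815). Of this gene, 48.6% of the exon bases are shared with other annotated genes on the same strand, among them the readthrough gene SENP3-EIF4A1, so these counts may hold a minor part of its reads. EIF4A2 had 453, 516 and 499.6 CPM in input and 547, 683 and 636 in pellets (log2 0.35 ± 0.14, adjusted p = 0.082, and adjusted p = 0.0159 with the block). The helicase cofactors EIF4B and EIF4H had log2 fold changes of -0.19 ± 0.19 and -0.14 ± 0.13 (adjusted p = 0.452 and 0.421). PDCD4, which binds and inhibits eIF4A, had 51.4, 70.2 and 73.7 CPM in input and 31, 47.7 and 50.4 in pellets, without overlap (log2 -0.60 ± 0.21, adjusted p = 0.0582, 0.00024 with the block). The helicase DDX3X, at -0.31 ± 0.15, passed with the block only (adjusted p = 0.146 and 0.022). PABPC1, the poly(A)-binding protein, was at 2461, 2081 and 2007 CPM in input and 1992, 2214 and 2420.0 in pellets (log2 0.02 ± 0.16, adjusted p = 0.941).

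**Figure D3:**
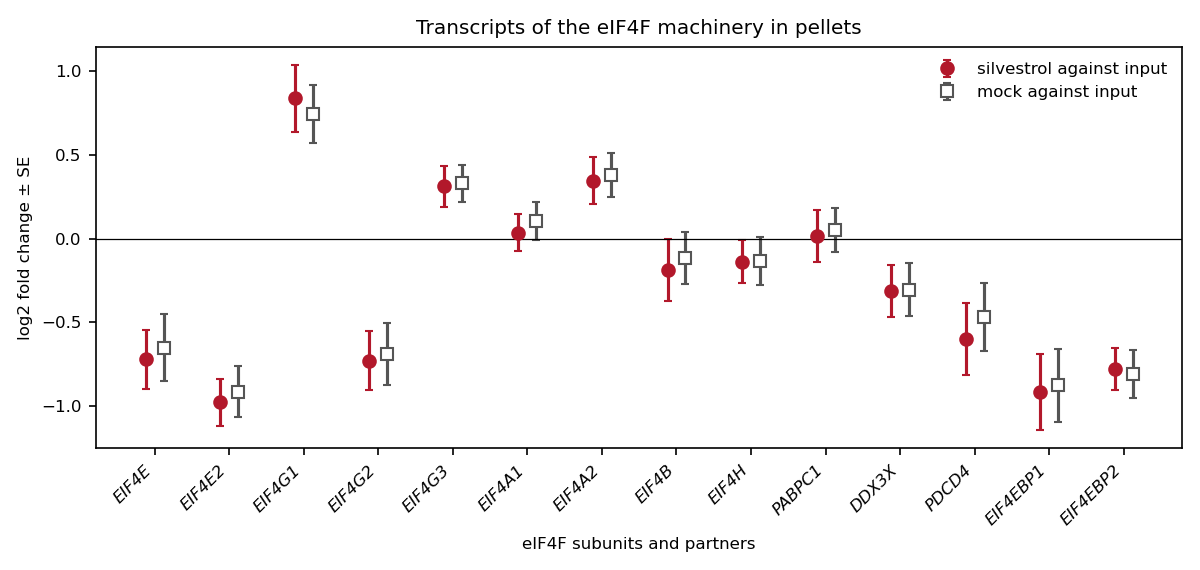
Log2 fold change over input (y axis, points with standard error bars) of the 14 eIF4F subunits and partners (x axis) in silvestrol pellets (red circles) and mock pellets (open squares), 3 libraries per group. EIF4G1 lies highest in the silvestrol pellets at 0.83 and EIF4E2 lowest at -0.98.

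Transcripts of stress granule proteins went both ways, 15.8% enriched and 21.1% depleted, beside 19.4% and 18.1% of all genes. Of 38 core stress granule genes 6 (2 with a GC offset) were enriched and 8 (4 to 5 without silvestrol replicate 2 or 3, 16 with the block) depleted (median -0.12). G3BP1, the nucleator, had 436, 306 and 317 CPM in input and 280.2, 287 and 271 in the pellets (log2 -0.34 ± 0.16, adjusted p = 0.135, 0.041 with the block). YBX1, a cold shock domain protein that coats mRNAs, fell from 2999.7, 2129 and 2267 to 845, 712 and 825 (log2 -1.63 ± 0.18, adjusted p = 0.00244), among the largest falls of all genes. CAPRIN1 and ELAVL1, partners of G3BP1 and of AU-rich RNA, fell by 0.68 ± 0.19 (adjusted p up to 0.0907 without silvestrol replicate 2 or 3, and log2 -0.49 with adjusted p = 0.083 with a GC offset) and 0.93 ± 0.18. All members of the PRRC2 family rose, PRRC2A by 0.80 ± 0.18 (log2 0.35 with adjusted p = 0.186 with a GC offset), PRRC2B by 0.59 ± 0.15 (adjusted p up to 0.0604 without input replicate 2 or 3, and log2 0.38 with adjusted p = 0.0807 with a GC offset) and PRRC2C by 0.88 ± 0.12. These and CAPRIN1 and ELAVL1 were picked after their values were seen. Genes of the integrated stress response, the arm of translation control that acts through eIF2, were enriched in 5 (1 to 3 without input replicate 2 or silvestrol replicate 2 or 3, 11 with the block, 3 with a GC offset) and depleted in 3 (1 without silvestrol replicate 2 or 3, 7 with the block) of 25 (median -0.03, 0.07 with a GC offset). These shares are 20% and 12%. EIF2AK1, the haem-regulated eIF2 kinase, fell from 399.7, 386 and 377 to 259, 239.9 and 264 CPM (log2 -0.61 ± 0.11, adjusted p = 0.00587), and the amino acid transporter SLC7A5 rose by 0.65 ± 0.14 (log2 0.23 with adjusted p = 0.156 with a GC offset).

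Of 35 growth and survival genes often described as dependent on eIF4A, 7 (3 to 4 without input replicate 2 or 3 or silvestrol replicate 2 or 3) were enriched and 9 (4 without silvestrol replicate 2 or 3) depleted (median -0.08). These shares are 20% and 25.7%, beside 19.4% and 18.1% of all genes. RHOA fell from 979.9, 823 and 813 to 396, 421 and 473 CPM (log2 -1.02 ± 0.14, adjusted p = 0.0027). SMAD3 rose by 0.48 ± 0.12 (adjusted p up to 0.0613 without input replicate 2 or 3 or silvestrol replicate 3), and MYC and HIF1A, picked after their values were seen, had log2 fold changes of 0.68 ± 0.23 (adjusted p = 0.0452, up to 0.141 without input replicate 1, 2 or 3 or silvestrol replicate 2 or 3, and log2 0.60 with adjusted p = 0.0616 with a GC offset) and -0.71 ± 0.13 (adjusted p = 0.00565). Immediate early and other short-lived regulators were enriched in 12 (6 without input replicate 3 or silvestrol replicate 2 or 3, 5 with a GC offset) and depleted in 6 (3 without input replicate 3 or silvestrol replicate 2 or 3) of 35 (median 0.18). JUN had 229, 215 and 199.5 CPM in input and 464, 465 and 368 in the pellets (log2 1.01 ± 0.14, adjusted p = 0.0027), and JUNB and CTGF, picked after their values were seen, rose by 0.73 ± 0.12 and 0.86 ± 0.18. For JUNB this was 0.17 with a GC offset (adjusted p = 0.228). CYR61 rose by 0.72 ± 0.23 (adjusted p = 0.0428, up to 0.145 without input replicate 1, 2 or 3 or silvestrol replicate 2 or 3). ZFP36L1, which destabilises AU-rich mRNAs, had 477, 497 and 498 CPM in input and 395, 370.4 and 392 in pellets (log2 -0.35 ± 0.11, adjusted p = 0.0449, up to 0.152 without input replicate 2 or 3 or silvestrol replicate 2 or 3, and log2 -0.30 with adjusted p = 0.0805 with a GC offset).

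The study chose 8 long and 4 short transcripts by their level in stress granules, so their direction here is not independent of that choice. The short ones were all depleted: GAPDH (above), RPL39 (log2 -1.05 ± 0.23, adjusted p = 0.0104), RPL31 (log2 -0.90 ± 0.25, adjusted p = 0.0229, up to 0.0506 without input replicate 3, and log2 -0.69 with adjusted p = 0.0609 with a GC offset) and RPS29 (log2 -0.84 ± 0.22, adjusted p = 0.0193). Of the long ones AHNAK had 242, 232 and 236 CPM in input and 376, 289 and 305 in pellets (log2 0.45 ± 0.14, adjusted p = 0.0334, up to 0.128 without input replicate 2 or 3 or silvestrol replicate 2 or 3) and BCL9L 171, 166 and 169 CPM in input and 387, 230.1 and 225 in pellets (log2 0.74 ± 0.21, adjusted p = 0.0288, up to 0.0861 without input replicate 1, 2 or 3, and log2 0.25 with adjusted p = 0.464 with a GC offset), and DYNC1H1 is given above. AHNAK2 (0.67 ± 0.23), MAP1A (0.82 ± 0.54), PEG3 (0.28 ± 0.35) and ZNF704 (0.30 ± 0.20) passed only with the block, at adjusted p = 0.0012, 0.00115, 0.0271 and 0.0194. MAP1A ranged from 150.4 to 537 CPM among the pellets. CDK6 had 161, 159.8 and 147 CPM in input and 163, 159 and 165 in pellets (log2 0.06 ± 0.11, adjusted p = 0.7). In the list 3 (0 to 1 without input replicate 2 or 3 or silvestrol replicate 3, 7 with the block) were thus enriched and 4 depleted.

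Noncoding RNAs were spread over both sides. Of 337 intergenic lncRNAs 35 (11 to 18 without input replicate 2 or 3 or silvestrol replicate 2 or 3, 72 with the block) were enriched and 41 (18 to 24 without input replicate 2 or 3 or silvestrol replicate 2 or 3, 92 with the block) depleted (median -0.16, -0.08 with a GC offset), and of 513 antisense lncRNAs 46 (27 to 30 without input replicate 2 or 3 or silvestrol replicate 2, 96 with the block) and 45 (17 to 22 without input replicate 2 or 3 or silvestrol replicate 2 or 3, 103 with the block) (median -0.08). LINC02593 rose from 6.21, 8.53 and 8.01 to 15.6, 18.8 and 20.1 CPM (log2 1.26 ± 0.17, adjusted p = 0.00264), and SLC9A3-AS1 by 1.17 ± 0.23. Small nucleolar RNA host genes, several with a terminal oligopyrimidine leader, were depleted in 6 (3 without input replicate 3 or silvestrol replicate 2 or 3, 14 with the block) and enriched in 2 (1 without input replicate 2 or 3 or silvestrol replicate 2, 6 with the block) of 30 (median -0.29). DANCR fell from 190.1, 144 and 133 to 106, 86.7 and 92.9 (log2 -0.71 ± 0.16, adjusted p = 0.0124, up to 0.0541 without silvestrol replicate 2 or 3) and SNHG14 rose by 0.63 ± 0.12. Of lncRNAs known to stay in the nucleus 13 were kept, with 1 (0 to 2 without input replicate 3 or silvestrol replicate 1, 2 or 3, 6 with the block, 2 with a GC offset) enriched and 2 (1 without input replicate 2 or 3 or silvestrol replicate 1, 2 or 3, 4 with the block, 1 with a GC offset) depleted (median 0.25). JPX fell by 0.71 ± 0.13, and 78.0% of its exon bases are antisense to FTX. Genes of small nucleolar and spliceosomal RNAs, which poly(A) selection should remove, had 1 (0 without input replicate 3 or silvestrol replicate 2 or 3) enriched of 14 kept, SNORD83A, at 0.598, 0.828 and 0.762 CPM in input and 1.44, 1.42 and 1.46 in the pellets (log2 0.96 ± 0.24, adjusted p = 0.0164, up to 0.0584 without input replicate 3 or silvestrol replicate 2 or 3). Of the small cytoplasmic RNAs 3 were kept, all homologous to the Alu family. BCYRN1, the dendritic RNA BC200, fell from 932, 218 and 302 to 63.6, 36.6 and 22.8 CPM (log2 -3.56 ± 0.62, adjusted p = 0.00456). RN7SL2, the RNA of the signal recognition particle, rose from 40.2, 33.7 and 18.4 to 56.3, 102 and 76.3 (log2 1.35 ± 0.31, adjusted p = 0.0122, and log2 0.82 with adjusted p = 0.119 with a GC offset). Reads of these repeats may come from other copies.

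The largest changes among genes of at least 3 in average log2 CPM were mitochondrial at the top. All 6 largest rises were mitochondrial mRNAs (MT-ND2, MT-CO3, MT-CYB, MT-ATP6, MT-ND4 and MT-ND4L). Outside that genome SLTM, which binds RNA and chromatin (chr15:58879045-58933653, GRCh38), rose from 276, 206 and 219 to 733, 635 and 599 CPM (log2 1.49 ± 0.16, adjusted p = 0.00244). SLTM was picked after its values were seen. COL16A1 (chr1:31652247-31704319), HSP90B1 (chr12:103930107-103953645) and EIF5B (chr2:99337353-99401326) were given above. Among called genes without overlap between groups, the 6 largest falls were BCYRN1, MT-TN, YBX1, LSM3, UMAD1 and TMSB4XP4. LSM3 (chr3:14178358-14201119), of the ring that binds U6 RNA and decapping intermediates, fell from 179.7, 94.4 and 90.3 to 39.1, 36.6 and 37.3 CPM (log2 -1.69 ± 0.26, adjusted p = 0.00341). UMAD1 (chr7:7640711-7968020) fell from 23.1, 27 and 26 to 5.16, 6.54 and 10.2 (log2 -1.8 ± 0.24, adjusted p = 0.00259). TMSB4XP4, a pseudogene of thymosin beta 4 whose reads may belong to the parent, had 41.5, 7.03 and 7.11 CPM in input and 3.72, 4.84 and 4.09 in pellets (log2 -2.12 ± 0.68, adjusted p = 0.0401, up to 0.116 without silvestrol replicate 1, 2 or 3, and log2 -1.89 with adjusted p = 0.0672 with a GC offset). YBX1 lies at chr1:42682427-42702349 and BCYRN1 at chr2:47335315-47335514.

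**Figure D4:**
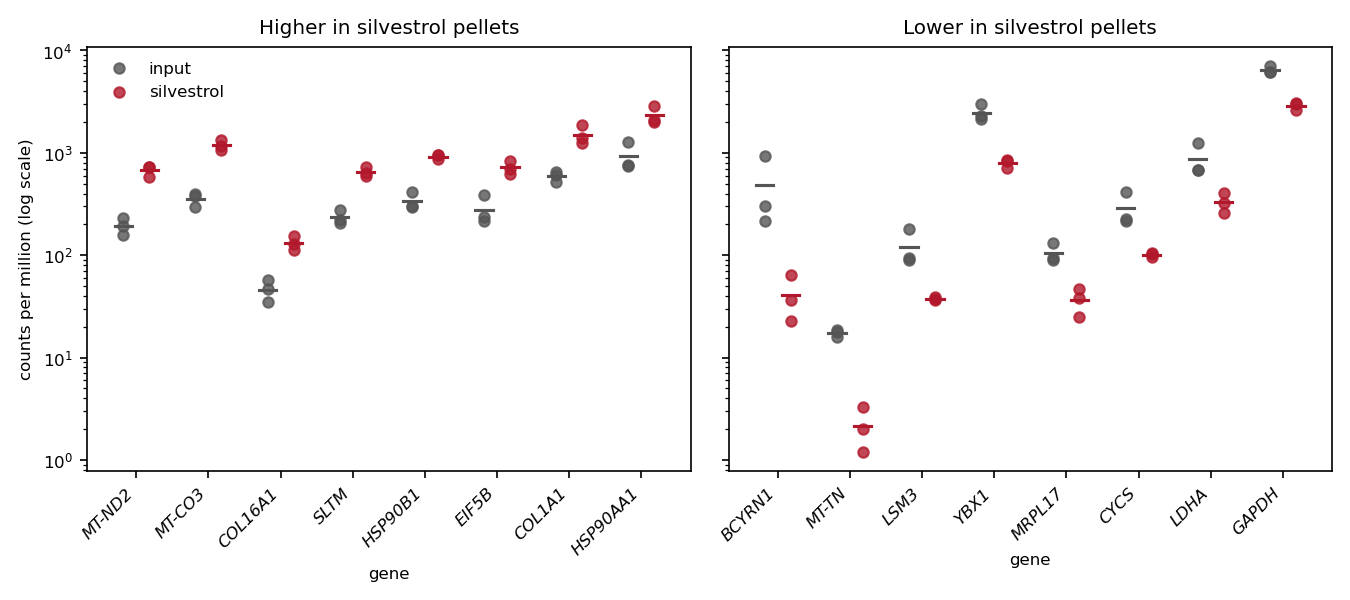
CPM on a log scale (y axis) in each input library (grey points) and each silvestrol pellet (red points), with group means as bars, for 8 enriched (left) and 8 depleted genes (right). In each of these genes the 3 pellets do not overlap the 3 inputs, from MT-ND2 with a log2 fold change of 1.81 to BCYRN1 with -3.56.

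Whether the drug, with any vehicle, changed the composition of the sedimented poly(A) RNA is asked by silvestrol against mock. Counts were scaled in each library, so a change in the amount of RNA that sedimented could not be seen. No gene passed that test without the replicate block. Of 16612 genes 0 (0%) were called by edgeR and 0 by DESeq2, with 35 and 25 at an unadjusted p under 0.05. Both fits left out the pairing, while same-numbered silvestrol and mock libraries deviated together (correlations of 0.586 to 0.852). Both counts lie far under a share of 0.05 of the genes, which chance alone would give, so these fits were conservative. With the replicate block 1078 genes had an unadjusted p under 0.05, and 867 with the block and a GC offset. After adjustment 2 genes were called with the block, HES1 and IK, named after their values were seen, and 3 with the block and a GC offset. The differences between the pellets of all genes had a median of 0.00, with quartiles of -0.07 and 0.07 and percentiles 5 and 95 at -0.19 and 0.19, against a median standard error of 0.16. Against input, mock gave 2916 enriched (17.6%) and 2625 depleted genes (15.8%). The mock and silvestrol comparisons share the inputs, so their values are given side by side and are not set against each other. Mitochondrial mRNAs had a median of 1.45 in mock beside 1.61 with silvestrol, matrix genes 0.71 beside 0.84, giant scaffolds 0.56 beside 0.64, ribosomal proteins -0.59 beside -0.70, respiratory chain subunits -0.79 beside -0.87 and proteasome subunits -0.67 beside -0.74. The median differences between silvestrol and mock ran from -0.11 for respiratory chain subunits to 0.13 for mitochondrial mRNAs over the 39 lists with at least 8 genes tested, and the 3 small cytoplasmic RNAs had -0.43.

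For single genes the pellets also lay close together. MT-ND2 had 606, 693 and 609 CPM in mock, COL1A1 1382, 1122 and 1428, YBX1 1024, 635 and 744 and GAPDH 3391, 2852 and 2813. The log2 differences between silvestrol and mock were 0.09 ± 0.13, 0.20 ± 0.19, -0.01 ± 0.19 and -0.06 ± 0.14, all with adjusted p = 1. Among the eIF4F genes the differences ran from -0.13 (PDCD4) to 0.10 (EIF4G1). RN7SL2 had the widest gap among the genes named, with 22.7, 211 and 139 CPM in mock and the silvestrol values given above (log2 difference -0.67 ± 0.67, adjusted p = 1). A p that misses the threshold does not show that the pellets held the same RNA.

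Enriched and depleted mRNAs differed in length and in base composition. Over 13501 protein-coding genes with an annotated coding sequence, the log2 fold change followed coding length with Spearman's rho = 0.43 and the GC content of the exons with rho = 0.49, across genes that share the same 6 libraries. The genes were split into 5 groups of equal size by each feature. In the group with the shortest coding sequences (75 to 777 bases), 7.0% were enriched and 43.1% depleted. In the group with the longest (2574 bases and more) 38% were enriched and 3.3% depleted. By GC content, 5.04% of the lowest group (up to 41.6% GC) and 49.9% of the highest group (from 59.1% GC) were enriched. Genes in both the shortest and the lowest GC group were depleted in 68% of 525, and genes in both the longest and the highest GC group were enriched in 78.6% of 510. The part of library preparation in the GC trend was not tested. With the GC offset rho was 0.08 for GC and 0.51 for coding length. In mock against input rho was 0.43 for coding length and 0.45 for GC.

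**Figure D5:**
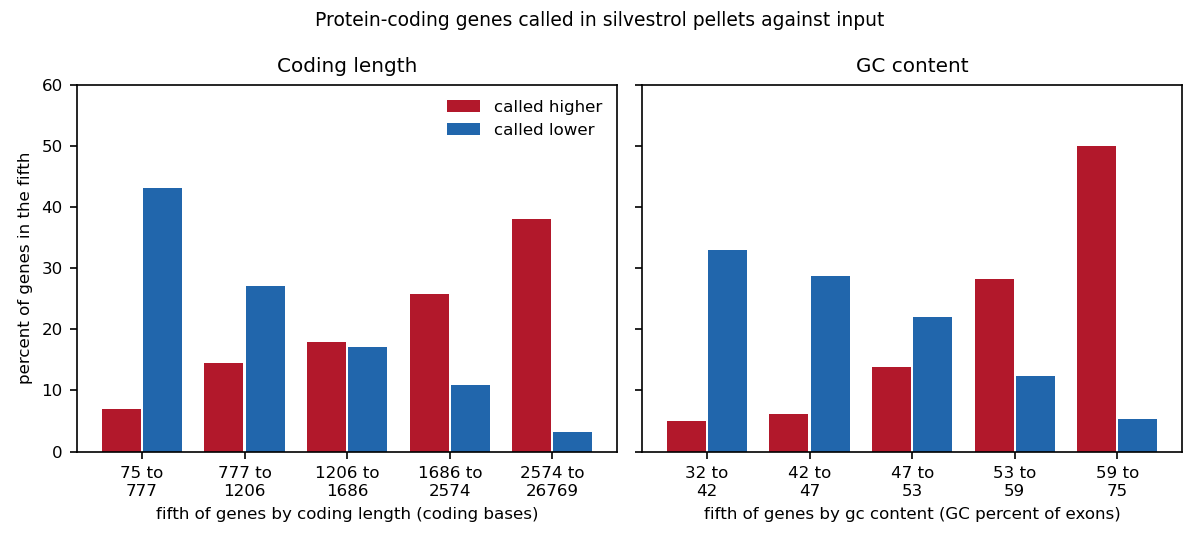
Percent of protein-coding genes called enriched (red) and depleted (blue) in silvestrol pellets against input (y axis), by 5 groups of coding length (left, bases) and of exon GC content (right, percent). The enriched share climbs from 7.0% to 38% with coding length and from 5.04% to 49.9% with GC content.

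For leaders, on which eIF4A works, the length had rho = 0.02 (0.04 with the GC offset) and the GC content rho = 0.15 (0.01 with the offset). The length of the 3′ untranslated region had rho = 0.02, and 0.22 with the GC offset. Of 1940 genes whose leader of at least 20 bases holds the purine motif GAGAGA or AGAGAG on the coding strand 20.5% were enriched and 17.1% depleted, beside 20.2% and 21.3% of 10787 without it. The density of AUUUA pentamers in the 3′ untranslated region, a mark of unstable mRNAs, had rho = -0.20, and 0.03 with the GC offset.

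A group of mRNAs picked after its values were seen went against the trend with GC content. It was made of genes poor in GC whose coding sequence is long and holds long purine tracts. Among genes of at most 42% GC with at least 1200 coding bases, 20 of 36 (55.6%) were enriched where at least 10% of the coding sequence lay in purine runs of 10 or more bases, beside 118 of 1785 others (6.61%). Their median log2 fold changes were 0.53 and -0.16, and their median levels 6.29 and 4.72 in average log2 CPM. The groups were not matched for level, on which a call also depends. In mock 19 and 130 of the same genes were enriched (52.8% and 7.28%). Shorter genes lay mostly on the depleted side, with 30 of 50 purine-rich ones and 535 of 992 others depleted. Enriched were 2 of these purine-rich genes (4%) and 8 of the others (0.81%). In-frame purine codons stand for lysine, glutamate, arginine and glycine. To show them, the longest purine run within 1 exon is printed in capitals with up to 12 coding bases on either side, 5′ to 3′ on the coding strand, from GENCODE release 29 on GRCh38, for the enriched genes EIF5B, RBM25, NEXN, CALD1, NKAP and HMGN5 and for the depleted genes HMGB1 and PTMA. Of these 8 genes EIF5B was named by the rule, and the others were picked after their values were seen.
EIF5B (chr2:99363665-99363742, plus strand): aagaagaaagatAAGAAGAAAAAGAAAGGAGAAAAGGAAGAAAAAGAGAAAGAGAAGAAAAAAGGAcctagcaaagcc
RBM25 (chr14:73097059-73097100, plus strand): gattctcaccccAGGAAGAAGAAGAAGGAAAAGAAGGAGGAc
NEXN (chr1:77942461-77942501, plus strand): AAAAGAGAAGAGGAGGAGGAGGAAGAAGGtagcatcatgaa
CALD1 (chr7:134933319-134933372, plus strand): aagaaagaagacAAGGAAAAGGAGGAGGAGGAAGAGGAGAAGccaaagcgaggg
NKAP (chrX:119934494-119934537, minus strand): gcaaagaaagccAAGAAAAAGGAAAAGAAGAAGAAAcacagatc
HMGN5 (chrX:81114689-81114742, minus strand): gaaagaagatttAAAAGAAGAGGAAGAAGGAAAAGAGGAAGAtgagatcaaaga
HMGB1 (chr13:30461424-30461473, minus strand): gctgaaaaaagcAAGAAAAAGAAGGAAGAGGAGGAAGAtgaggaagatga
PTMA (chr2:231711938-231711983, plus strand): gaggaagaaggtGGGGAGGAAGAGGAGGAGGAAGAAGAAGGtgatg

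The printed runs are 54 bases long in EIF5B and 24 to 30 in the others, the depleted genes included. The 6 enriched genes have 846 to 3660 coding bases, the depleted ones 333 and 645. RBM25, a splicing regulator with a coding sequence of 2529 bases, had 314, 165 and 170.4 CPM in input and 551, 459 and 407 in the pellets (log2 1.13 ± 0.26, adjusted p = 0.013, up to 0.0545 without input replicate 3). NEXN, an actin-binding protein with 2025 coding bases, rose from 52.3, 27.1 and 28.9 to 113, 86.8 and 79.4 (log2 1.37 ± 0.27, adjusted p = 0.00666). CALD1, caldesmon, with 2379, rose from 204, 126 and 121 to 361, 300.1 and 281 (log2 1.06 ± 0.22, adjusted p = 0.00826). NKAP, a nuclear regulator with 1245 coding bases, rose by 1.43 ± 0.13 and HMGN5, a nucleosome-binding protein with 846, by 1.32 ± 0.28. HMGN5 holds 45.7% of its coding sequence in such runs. NKAP, CALD1 and PTMA, at 43.8%, 43.9% and 45.9% GC, lie above the limit of 42% and are not among the counted genes, and HMGN5 is among the shorter ones. The acidic proteins HMGB1 and PTMA, with 645 and 333 coding bases, hold 20.2% and 22.2% in runs. HMGB1 fell from 956, 744 and 822 to 438, 455 and 460.3 CPM (log2 -0.90 ± 0.14, adjusted p = 0.00342) and PTMA from 4123, 2660.1 and 2585 to 1561, 1868 and 1798 (log2 -0.84 ± 0.21, adjusted p = 0.0175, up to 0.0543 without silvestrol replicate 2 or 3). Both have processed pseudogenes, whose reads may be shared. In mock the log2 fold changes were 1.4 for EIF5B, 1.16 for RBM25, 1.47 for NKAP, -0.85 for HMGB1 and -0.78 for PTMA.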

How the data were processed

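Poly(A) RNA libraries were made and sequenced for the study by Azenta Life Sciences, and the deposited files hold whole-number read counts per gene. The submitters' processing notes name Trimmomatic 0.36, STAR 2.5.2b, Subread 1.5.2 with featureCounts, and GRCh38; the annotation release and strand setting are not given in the sources used here. Here the counts were scaled by TMM. They were fitted on the 6 libraries compared with edgeR 4.0.16 (R 4.3.3) by its quasi-likelihood test, after checks on simulated counts. Benjamini-Hochberg adjustment ran over 16612 genes. A prior count of 2 was used for the log CPM behind the GC offset and the correlations between libraries. Fold changes are log2 ± standard error. CPM of input and silvestrol were scaled over these 6 libraries, and CPM of mock over these and the mock libraries together. DESeq2 1.42.0 was an alternative. Positions and sequences came from GENCODE 29, which holds 56898 of 57500 gene IDs. Same-numbered silvestrol and input libraries deviated together (correlations of 0.495 to 0.691; -0.639 to 0.530 between different numbers, with replicates 2 and 3 alike and 1 apart), so fits were also made with that number as a block. Values of 3 libraries against 3 cannot go below p = 0.1 in an exact permutation test, so none was run. Named genes are, in each list, the called gene of highest level in each direction and the largest change at an average log2 CPM of at least 3, the 6 largest rises and falls, and all eIF4F, mitochondrial mRNA and study genes with G3BP1. The comparison and the gene lists were chosen with earlier results of these data known.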

Additional observations from a re-analysis of the deposited data

Results flagged for a closer look

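HES1 and IK differed between silvestrol and mock pellets when the replicate number was a block, and no gene did without it. HES1, a transcriptional repressor of the Notch pathway, had 63.7, 64.7 and 62.1 CPM in mock and 82.4, 80.0 and 80.1 with silvestrol. Its log2 difference was 0.3499 with the block (adjusted p = 0.0202) and 0.35 ± 0.08 without it (adjusted p = 1). IK, a splicing factor, had 223, 310.4 and 249.7 CPM in mock and 320.0, 393 and 360.2 with silvestrol, with a log2 difference of 0.4644 with the block (adjusted p = 0.0056) and 0.46 ± 0.15 without it (adjusted p = 1). Each was higher with silvestrol in all 3 numbered pairs, which is no separate support, as the blocked fit picked them on these pairs.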

How the results depend on the processing

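Silvestrol against input gave 5109 enriched and 4764 depleted genes with the replicate block, 4894 and 4767 with the block and a GC offset, and 756 and 401 over 2-fold. Leaving out 1 library gave 2148 to 3180 and 1711 to 3283. DESeq2, other scalings and filters, all 5 groups in 1 fit and the GC offset alone kept these counts, other than those over 2-fold, within 1.5 times. Over 2-fold, the GC offset gave 288 enriched genes (338 with the block too), no filter 610 depleted ones, and fits without 1 library 479 to 791 and 284 to 631, with 479 enriched without input replicate 1 and 631 and 610 depleted without input replicates 2 and 3. The GC offset kept 3996 of 6232 calls, and the sign turned in 85. Silvestrol against mock gave 2 with the block and 3 with the block and GC offset, all higher. Mock against input gave 5404 and 5003 with the block, 5091 and 5008 with both, 531 and 240 over 2-fold, and 1335 to 3068 and 1017 to 2854 without 1 library, lowest without mock replicate 3. Its counts over 2-fold were 246 enriched with the GC offset (309 with the block too) and 387 and 155 depleted with no filter and with library size only. The block lost no call of silvestrol against input and changed no call of a named gene beyond those given with it. Of 158 named genes called, 45 lost the call without some library and 33 with the GC offset. Signs turned only in named genes that were not called. CDK6 had log2 fold changes of -0.014 to 0.07065 over fits without 1 library, negative without input replicate 3. MAP1A had log2 fold changes of -0.05099 to 1.295 over fits without 1 library, negative without silvestrol replicate 1. PEG3 had log2 fold changes of -0.1304 to 0.6409 over fits without 1 library, negative without silvestrol replicate 1. PABPC1 had log2 fold changes of -0.0705 to 0.09071 over fits without 1 library, negative without input replicate 2 or 3 or silvestrol replicate 3, and -0.0179 with the either-group filter, -0.01884 with no filter, -0.01384 with all 5 groups. EIF4A1 had log2 fold changes of -0.008064 to 0.05353 over fits without 1 library, negative without input replicate 2 or 3, and -0.002704 with no filter. MT-ND5 had log2 fold changes of -0.1217 to 0.0817 over fits without 1 library, negative without input replicate 2 or 3 or silvestrol replicate 2, and -0.003776 with DESeq2, -0.00381 with DESeq2 size factors, -0.02693 with the either-group filter, -0.03073 with no filter, -0.02233 with all 5 groups. ITGB1 had log2 fold changes of -0.07128 to 0.1169 over fits without 1 library, negative without input replicate 1 or 2 or silvestrol replicate 2 or 3, and -0.01724 with the either-group filter, -0.02154 with no filter, -0.01426 with all 5 groups. The medians of ubiquitin-specific proteases and stress response genes turned sign under 6 and 9 alternatives. The causes were not tested. Genes near the count minimum of 10 have wide errors, and intervals cover the spread of 3 libraries a group.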

Other observations

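Further gene families were grouped by name after the values were seen, so their counts are a description beside 19.4% of all genes enriched and 18.1% depleted. The families of the cell surface and of secretion picked here lay on the enriched side of silvestrol pellets. This does not hold for all membrane proteins: solute carriers, given above, were enriched in 21.9% (median 0.14). Semaphorins, guidance cues that bind plexins, were enriched in 10 of 15 (median log2 fold change 1.01, 0.58 with a GC offset), Wnt ligands in 7 (3 to 4 without input replicate 2 or silvestrol replicate 2 or 3, 2 with a GC offset) of 11 (0.84, 0.48 with a GC offset), and their frizzled receptors in 7 (4 without input replicate 2 or silvestrol replicate 2 or 3) of 10 (0.71). FZD7 had 37.2, 35.7 and 35.6 CPM in input and 83.8, 64.1 and 64.4 in the pellets (log2 0.97 ± 0.14, adjusted p = 0.0027). LRP1 and its relatives, large endocytic receptors, were enriched in 8 of 11 (0.74), with LRP1 itself at 0.77 ± 0.15 (log2 0.38 with adjusted p = 0.144 with a GC offset). Protocadherins gave 15 (5 to 7 without silvestrol replicate 2 or 3, 28 with the block) of 35 (0.71); those of 1 cluster share their last exons, so reads may be split among them. Matrix metalloproteinases gave 5 (2 to 3 without input replicate 2 or silvestrol replicate 2 or 3, 1 with a GC offset) of 11 (0.60, 0.24 with a GC offset), ADAM and ADAMTS proteases 9 (3 to 5 without input replicate 2 or silvestrol replicate 2 or 3, 18 with the block) of 25 (0.53), and carbohydrate sulfotransferases, Golgi enzymes of proteoglycans, 7 of 12 (0.80, 0.28 with a GC offset), with 1 depleted. Golgins, coiled-coil tethers of Golgi vesicles, were enriched in 7 and depleted in 2 (1 without input replicate 2 or 3 or silvestrol replicate 1, 2 or 3, 1 with a GC offset) of 11 (0.76).

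The families of small cytosolic proteins picked here lay on the other side. COMMD proteins, subunits of a complex of endosomal sorting, were depleted in 7 and enriched in 1 (0 without input replicate 2, 0 with a GC offset) of 10 (-0.97). The COP9 signalosome, which removes NEDD8 from ubiquitin ligases, was depleted in 7 of 9 subunits (-0.76), the actin nucleator Arp2/3 in 5 of 8 (-0.68) and LSM proteins in 7 of 13 (-0.56). Annexins, which bind membranes with calcium, were depleted in 6 of 9 (-0.66). Ubiquitin-conjugating enzymes were depleted in 23 and enriched in 2 (1 without input replicate 3 or silvestrol replicate 2 or 3, 4 with the block, 1 with a GC offset) of 34 (-0.71).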
